A study of Mus musculus with 3 samples.

Results

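Ackr4-positive lymphatic endothelial cells were a group of 337 cells with transcripts of the lymphatic genes Prox1 or Mmrn1 and of Ackr4, an atypical chemokine receptor. They were selected on measured counts among the 3195 cell barcodes that occurred in all 3 libraries of the series. A barcode had to have at most 20% of its unique molecular identifiers (UMIs, each tagging 1 captured RNA molecule) from mitochondrial genes in the WT counts, which 3145 barcodes met. It also had to have at least 1 UMI of Prox1 or Mmrn1, which left 1094 cells, and at least 1 UMI of Ackr4, which left 368. The last step left out 31 cells with a UMI of Marco (26 cells) or Madcam1 (5 cells). The 337 cells were 30.8% of the shared cells with Prox1 or Mmrn1 and 10.7% of all shared cells kept, of 34185 barcodes deposited for the 3 libraries.

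The series measured single-cell RNA sequencing of small intestinal organoids, epithelial cells grown as hollow bodies in gel, with 1 library in each of 3 groups. WT organoids are labelled as wild type, LApc organoids carried Lgr5-CreERT2 and Apc fl/fl, and LApcL organoids carried Lgr5-CreERT2, Apc fl/fl and Lef1 fl/fl. All mice were of the C57BL/6 strain, received 2 doses of 2 mg tamoxifen when 7 to 8 weeks old, and were analysed 21 days (WT and LApcL) or 29 days (LApc) later, and organoids were taken at passage 3 on day 6 of culture. The study names the Cre allele Lgr5-EGFP-IRES-CreERT2 in full and also uses control mice that carry it, and whether the WT organoids did is not given in the sources used here. The Cre is driven by the Lgr5 gene, a stem cell gene of the intestinal epithelium, so the design targets epithelial and not endothelial cells. There was no replicate library in any group.

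Lymphatic endothelial cells line the vessels that drain tissue fluid and the sinuses of lymph nodes, and Prox1 is the transcription factor that sets their identity. Ackr4 binds the chemokines CCL19, CCL21 and CCL25, which guide dendritic cells and lymphocytes, and takes them up without the usual chemokine signal. In lymph nodes it is known from the endothelium of the ceiling of the subcapsular sinus, whereas Madcam1 and Itga2b are known from the floor of that sinus and Marco and Lyve1 from deeper sinuses.

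The shared barcodes affect every value here. The 3195 barcodes made up 28.0% of the WT, 29.8% of the LApc and 26.5% of the LApcL barcodes, and the libraries held 87185429, 118867221 and 112057783 UMIs. In the WT counts the 337 cells had 1079179 UMIs, with a median of 2990 per cell (740 to 11675), a median of 1449 genes and a median of 4.64% mitochondrial UMIs. In the LApc counts the same barcodes had a median of 2044 UMIs, and each cell had 0.679 times its WT count at the median, with 90% of cells between the 5th and 95th percentiles of 0.646 and 0.711. In LApcL the median was 2204 UMIs and the ratio 0.735 (0.702 to 0.768). Across the cells, the logarithm of the UMI count correlated between WT and LApc with Pearson r = 0.996 and between WT and LApcL with r = 0.997, a description over 337 shared barcodes. Of the pairs of gene and cell with a UMI in LApc, 61.1% also had one in WT, and of those in LApcL 60.6%. The 3 libraries were therefore not treated as independent samples of these cells, and genotype was not compared over them. The origin of the shared barcodes was not tested. Outside the shared barcodes the rule was met by 9 cells in WT, 3 in LApc and 2 in LApcL, too few to describe.

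**Figure D1:**
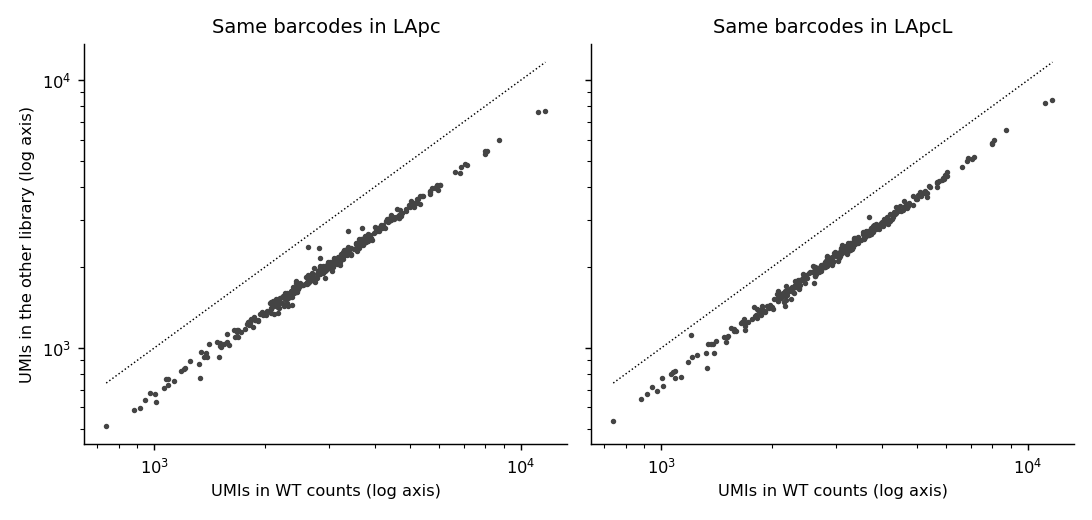
UMIs of each of the 337 Ackr4-positive cells in the WT counts (horizontal, log axis) and under the same barcode in the LApc and LApcL counts (vertical, log axis). The dotted line marks equal counts, and all cells lie along a line below it, at median ratios of 0.679 and 0.735.

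The genes used to choose the cells describe the rule and are no result. Ackr4 (ENSMUSG00000079355; mm10 chromosome 9, 104084157 to 104126933, reverse strand) had 1508 UMIs in the 337 cells, with 1 to 20 per cell and a median of 4. Prox1 (ENSMUSG00000010175; chromosome 1, 190118035 to 190170714, reverse strand) was found in 272 cells and Mmrn1, a matrix protein stored in endothelial cells (ENSMUSG00000054641; chromosome 6, 60924976 to 60989378, forward strand), in 301. Both were found in 236 cells, Prox1 alone in 36 and Mmrn1 alone in 65. At the lower edge of the rule stood 80 cells with 1 Ackr4 UMI, and 31 cells had a single UMI of Prox1 and Mmrn1 together. Just outside it stood 19 cells with 1 Marco UMI, 53 cells with Ackr4 but neither Prox1 nor Mmrn1, and 1 cell over the mitochondrial limit.

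The LApc and LApcL counts of the 337 barcodes, which the rule did not use, held Ackr4 at 1257 and 1293 CPM (counts scaled to a library of 1000000 UMIs, after summing over the cells), beside 1397 CPM in WT. An Ackr4 UMI was found again in 270 cells (80.1%) in LApc and 279 cells (82.8%) in LApcL. Marco was found in 6 and 5 of the 337 cells and Madcam1 in 1 and 1. Applied to the LApc counts, the rule took 306 cells, of which 249 were among the 337, and applied to the LApcL counts it took 315, of which 257 were. It was met in all 3 libraries by 208 cells and in at least 1 by 424. Membership at the edge of the rule thus depended on which library was read.

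The cell type label was checked against endothelial markers. The adherens junction gene Cdh5 stood at 525 CPM (95% Poisson interval for counting error only, 483 to 571), the tight junction gene Cldn5 at 1915 CPM (1834 to 2000) and the adhesion molecule Pecam1 at 563 CPM (519 to 610). Pecam1 was found in 245 cells, with 0 to 18 UMIs per cell and a median of 1. Flt4, the receptor for lymphatic growth factors, stood at 198 CPM and was found in 149 cells (44.2%), and the lymphatic surface protein Pdpn stood at 104 CPM. In 1938 shared cells without Prox1 and Mmrn1 but with Flt1 or Plvap, called blood endothelial cells here, Flt4 stood at 19.1 CPM and Pdpn at 1.97 CPM. Plvap was also found in 292 of the 337 Ackr4-positive cells and does not set blood apart from lymphatic cells. Whether the 1938 cells held lymphatic cells whose Prox1 and Mmrn1 were missed was not tested. Lyve1 was found in only 40 of the 337 cells. Lyve1, Ccl21a, Reln and Nrp2 were lower than in the other shared cells with Prox1 or Mmrn1. The endothelial markers thus went with the label, as did Flt4 and Pdpn beside the blood endothelial cells. Lyve1, Ccl21a, Reln and Nrp2 were set beside other lymphatic cells instead, and a lower level there does not decide the label. Flt4, found in 44.2% of the 337 cells, was found in 65.5% of Marco-positive and 43.1% of Madcam1-positive lymphatic cells. Epithelial markers were nearly absent: Epcam and Cdh1 had 0 UMIs in the 337 cells, and the 6 epithelial markers had 9 UMIs in 9 cells. Of 7 lymphocyte markers 5 were at 0, among them Ptprc, and the list had 4 UMIs in 4 cells. The 6 macrophage markers had 12 UMIs in 12 cells. The 7 fibroblastic markers had 150 UMIs in 53 cells, 147 of them from the matrix proteoglycan Dcn, with Pdgfra, Col1a2 and Lum at 0. The 7 genes of high endothelial venules had 758 UMIs in 90 cells. The 10 genes of capillary and arterial endothelium had 1718 UMIs in 324 cells, of which 1031 came from Plvap, and the arterial gene Gja5 was at 0. The part of the venule, capillary and fibroblastic genes in the results was not tested. Leaving cells with epithelial, lymphocyte or macrophage UMIs out of both groups gave 82 higher and 124 lower genes in the comparison with the other lymphatic cells, beside 88 (4.73% of the genes compared) and 121 (6.5%) with them.

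The comparison group was the other 757 shared cells with Prox1 or Mmrn1, at a median of 2751 UMIs. It held 235 Marco-positive cells without Madcam1 (median 3394 UMIs), 102 Madcam1-positive cells (3944) and 420 cells with Ackr4, Marco and Madcam1 all at 0 (2197). All groups came from 1 library, so differences are descriptions with no replicate check, and no test was made. A gene was compared where its level reached 100 CPM in either group, and a gene was called higher or lower at a log2 ratio of CPM + 10 of at least 1 or at most -1. The added 10 CPM understates the difference of genes at a low level. A gene that reached 100 CPM in only 1 group entered through the group where it is high, so the counts and medians of the lists describe the genes that entered and support nothing further. Of 1862 genes compared, 88 were higher (4.73%) and 121 lower (6.5%) in the Ackr4-positive cells, and the median log2 ratio was 0.079. Since the cells were chosen on genes of the same counts, these shares carry no evidence that the groups are separate cell types.

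Bgn, a small matrix proteoglycan, had the highest ratio of all genes compared. Its gene (ENSMUSG00000031375) lies on chromosome X at 73483602 to 73495933 on the forward strand. It stood at 418 CPM (380 to 458) in the Ackr4-positive cells and 51.5 CPM (42.7 to 61.5) in the other cells, an 8.12-fold difference and a log2 ratio of 2.80. Single cells had 0 to 6 Bgn UMIs with a median of 1, and the UMIs were spread over 213 cells. Bgn was found in 63.2% of the Ackr4-positive cells and 9.51% of the others. After thinning each cell to 1000 UMIs, which left out 5 and 62 cells, the shares were 30.7% (exact Clopper-Pearson interval 25.8 to 36.0) and 5.32% (3.78 to 7.26). In the 1938 blood endothelial cells, at a median of 1933 UMIs, the thinned share was 3.04%. The same cells read in LApc and LApcL gave log2 ratios of 2.56 and 2.35.

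Nts, which encodes the peptide neurotensin (ENSMUSG00000019890; chromosome 10, 102481756 to 102490486, reverse strand), marked only some of the cells. It stood at 1161 CPM (1098 to 1227) against 640 CPM (608 to 674) in the other cells, a log2 ratio of 0.85, below the limit for a call. A UMI was found in 120 of the 337 cells (35.6%), and single cells ranged from 0 to 81. The 34 cells with the most held 71.7% of the Nts UMIs. The level was close to that of the cells with Ackr4, Marco and Madcam1 at 0, which stood at 1077 CPM, and above that of the Marco-positive (322 CPM) and Madcam1-positive cells (177 CPM). After thinning, Nts was found in 25.6% (21.0 to 30.7) of the Ackr4-positive cells, 23.9% (19.6 to 28.6) of the cells with the 3 genes at 0 and 0.994% of the blood endothelial cells. The first 2 intervals overlap over most of their length. They cover counting error only, and the difference between the groups was not tested.

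**Figure D2:**
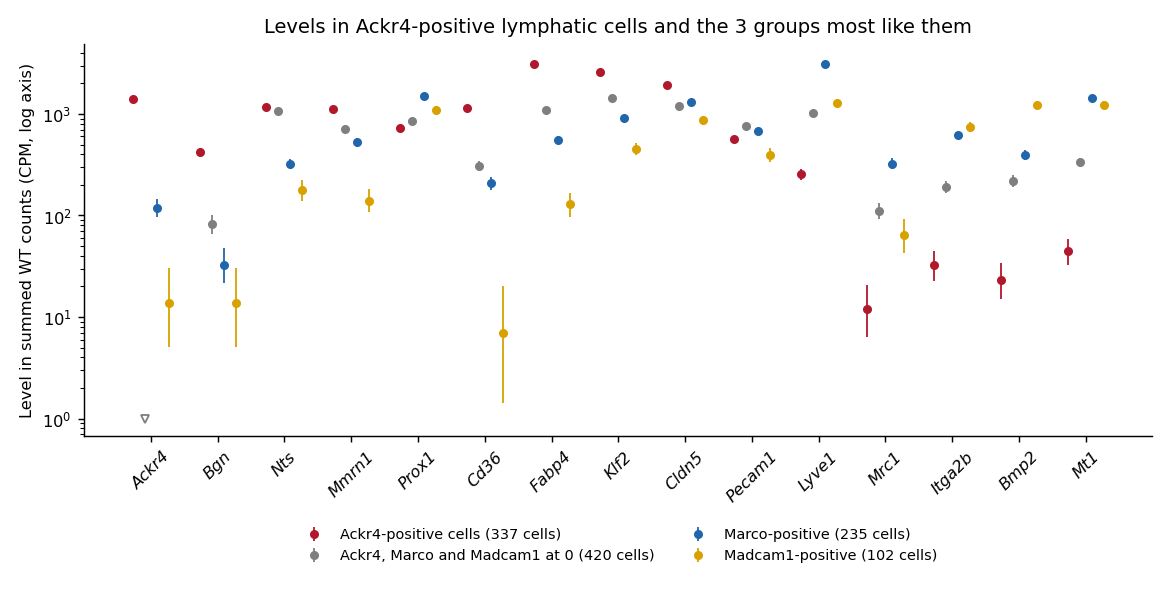
Level of 15 genes in the summed WT counts (CPM, log axis) in the 337 Ackr4-positive cells and the 3 groups most like them, with 95% Poisson intervals that cover counting error only. The open triangle marks Ackr4 at 0 UMIs, which the grouping fixed. Bgn, Cd36, Fabp4 and Klf2 were highest in the Ackr4-positive cells, and Lyve1, Mrc1, Itga2b, Bmp2 and Mt1 lowest.

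Genes of lipid uptake and of caveolae, small pits of the cell membrane, were higher in the Ackr4-positive cells. Of 10 genes in that list 8 were compared, 5 were called higher and 1 lower (4.73% and 6.5% over all genes). The median log2 ratio was 1.05 against 0.079 for all genes. Cd36, a fatty acid transporter (ENSMUSG00000002944; chromosome 5, 17781690 to 17888801, reverse strand), stood at 1152 CPM (1089 to 1218) against 217 (198 to 236), with a log2 ratio of 2.36. Cells had 0 to 32 Cd36 UMIs with a median of 3, and 263 cells had at least 1. Fabp4, which carries fatty acids within the cell (ENSMUSG00000062515; chromosome 3, 10204088 to 10208576, reverse strand), stood at 3103 CPM (2999 to 3210) against 727 (693 to 763), with a log2 ratio of 2.08. It ranged from 0 to 61 UMIs with a median of 6. Both genes were found in 242 cells and neither in 29. The caveolar genes Cavin2 (954 against 447 CPM) and Ehd2 (278 against 96.9 CPM) and the fatty acid carrier Fabp5 (119 against 53.6 CPM) were also called, Fabp5 with a ratio of 0.80 without the cell that held 20 of its 128 UMIs. Cav1, the main protein of caveolae, stood at 374 against 216 CPM, with a log2 ratio of 0.77. Fabp4 was also abundant in the blood endothelial cells, at 1560 CPM, whereas Cd36 stood there at 118 CPM.

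The ceiling and floor lists were chosen with earlier results of these data known. Of 8 ceiling genes 5 were compared, and Bgn, Btnl9 and Cd36 were called higher, with a median log2 ratio of 1.38. Over all genes compared, 4.73% were higher. Btnl9, a butyrophilin-like surface protein, stood at 212 CPM against 75.5. Foxc2, a transcription factor of lymphatic valves, was under the level compared, at 48.2 against 20.6 CPM. Of 10 floor genes 6 were compared, 4 were lower and 1 higher (6.5% and 4.73% over all genes), with a median of -2.78. The lower ones were the integrin chain Itga2b (32.4 against 444 CPM), the scavenger receptor Msr1 (26.9 against 342 CPM), the growth factor Bmp2 (23.2 against 470 CPM) and the mucin-like protein Glycam1 (547 against 2756 CPM, and 182 CPM without the cell that held 395 of its 590 UMIs). Csf1, the macrophage growth factor, stood at 241 against 391 CPM and passed no limit. The secreted protein Coch had 0 UMIs in the Ackr4-positive cells and 206 in the others, and the chemokine Ccl20 had 1 and 120. The exception was Bmp4, a growth factor of the same family as Bmp2, at 122 CPM (102 to 145) against 26.6 (20.4 to 34.1), with a log2 ratio of 1.86. Madcam1-positive cells were removed by the rule and made up 102 of the 757 other cells, so part of the floor pattern is fixed by the choice of cells. In the 420 cells with Ackr4, Marco and Madcam1 at 0, which have no Madcam1 either, Bmp2 stood at 219 CPM, Itga2b at 191 CPM and Msr1 at 95.6 CPM.

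Compared genes of the Marco-type sinus list were lower or passed no limit. Lyve1, the hyaluronan receptor of many lymphatic vessels (ENSMUSG00000030787; chromosome 7, 110850607 to 110863239, reverse strand), stood at 254 CPM (225 to 286) against 1827 (1772 to 1883), 7.20-fold lower. It was found in 40 of the 337 cells, with 0 to 39 UMIs per cell, and in 431 of the other 757. Mrc1, the mannose receptor, stood at 12.0 against 178 CPM. Of the 6 genes of the Marco-type sinus list that were compared, these 2 were lower and none was higher (6.5% and 4.73% over all genes). Marco-positive cells were removed by the rule and made up 235 of the 757 other cells. Part of this pattern is thus fixed by the choice of cells. In the 420 cells with Ackr4, Marco and Madcam1 at 0, Lyve1 stood at 1023 CPM and Mrc1 at 112 CPM. Stab2, a hyaluronan scavenger receptor, stood at 569 against 353 CPM with a log2 ratio of 0.67, and Stab1, its relative, at 410 against 558 CPM. The Ackr4-positive cells thus had a low level of Lyve1 without a low level of Stab2.

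Among the 14 genes of lymphatic identity, 10 were compared, 4 were lower and none was higher (6.5% and 4.73% over all genes), with a median of -0.71. Beside Lyve1 the lower ones were Reln, a secreted matrix protein (13.9 against 121 CPM), Nrp2, a co-receptor of lymphatic growth factors (191 against 430 CPM), and Ccl21a, the chemokine that Ackr4 removes (184 against 430 CPM). The Ccl21a counts may be split with near-identical copies of the gene and are uncertain. They also rested on 1 cell, which held 119 of the 199 UMIs, and without it the level was 74.7 CPM. The median of the 8 pan-endothelial genes was -0.0027 and none passed a limit.

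Of 12 chemokine and chemokine receptor genes 4 were compared, 1 was higher and 2 were lower (4.73% and 6.5% over all genes). The higher one was a receptor, and the lower ones were the chemokines Ccl21a and Cxcl10. Ackr3, another atypical receptor, which removes CXCL12, stood at 171 CPM (148 to 198) against 37.7 (30.3 to 46.5), with a log2 ratio of 1.93, and was found in 118 cells. It had 0 UMIs in the 102 Madcam1-positive cells, so its level in the Ackr4-positive cells was at least 24.8-fold higher at a floor of 3 UMIs over that group. Cxcl12 itself was under the level compared, at 29.7 against 91.8 CPM, and Cxcl10, an interferon-induced chemokine, stood at 86.2 against 321 CPM. The remaining atypical receptors were under the level compared, with Ackr2 at 36.1 against 24.9 CPM and Ackr1 at 22.2 against 32.2 CPM. Ccl19 and Ccl25, which are also bound by Ackr4, had 1 and 10 UMIs.

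Of 19 matrix genes 14 were compared, 4 were higher, 1 (Reln) was lower and 9 passed no limit, with a median of 0.39. Over all genes compared, 4.73% were higher and 6.5% lower. Beside Bgn the higher ones were fibronectin Fn1 (439 against 167 CPM), Ltbp4, which binds latent TGF-beta (645 against 234 CPM), and the laminin chain Lamb1 (152 against 62.6 CPM). Of genes outside the lists, Timp4, an inhibitor of matrix proteases, stood at 369 against 73.3 CPM, and Fbln5, an elastic fibre protein, at 138 against 38.2 CPM. In the other direction, the matrix proteins Postn (37.1 against 413 CPM) and Ltbp2 (35.2 against 325 CPM) were lower.

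Of the 20 endothelial transcription factors 12 were compared, with a median of -0.068. Klf2, a factor that responds to fluid flow, was higher, at 2578 CPM (2483 to 2675) against 1064 (1023 to 1107), with a log2 ratio of 1.27. Its relative Klf4 stood at 1646 against 1690 CPM. Maf, a factor of lymphatic identity, stood at 398 against 673 CPM with a ratio of -0.74. Gja4, a gap junction gene of arteries and lymphatic valves, was the only junction gene of 9 compared that was called, at 113 against 36.5 CPM. For scale, 4.73% of all genes compared were higher and 6.5% lower. Of the valve genes, the integrin chain Itga9 was lower, at 149 against 355 CPM, and the tight junction gene Cldn11 stood at 126 against 160 CPM. Foxc2 and Gja4 were found together in 12 cells, of 47 with Foxc2 and 83 with Gja4.

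The metallothioneins Mt1 and Mt2, which bind metal ions, had the lowest ratios of all: Mt1 stood at 44.5 CPM (32.8 to 59.0) against 891 (853 to 930) with a log2 ratio of -4.05, and Mt2 at 16.7 against 393 CPM with -3.92. They were found in 35 and 13 of the 337 cells. The complement component C3 stood at 38.0 against 618 CPM. Of 10 immune contact genes compared 3 were lower and none higher (6.5% and 4.73% over all genes). The lower ones were the adhesion molecule Vcam1 (246 against 550 CPM), the alarmin Il33 (38.0 against 188 CPM) and Cd74, the chaperone of antigen-presenting molecules (48.2 against 284 CPM). The 9 immediate early and heat shock genes compared, which respond to cell handling, had a median of 0.16 and none was called, with Fos at 4118 against 2600 CPM.

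Of 8 compared receptors of vessel growth factors, Flt1 (68.6 against 196 CPM), the blood endothelial receptor of VEGF, and Nrp2 were lower, with a median of -0.49. Beside the counts of this and the next lists, 4.73% of all genes compared were higher and 6.5% lower. None of the 4 compared genes that make, carry or sense the lipid signal sphingosine 1-phosphate was called, with a median of -0.043, and its receptor S1pr1 stood at 350.3 against 456 CPM. The only vessel growth factor ligand compared was Angpt2, which remodels vessels, at 108 against 58.3 CPM with a ratio of 0.79. The only gene compared of the Ptx3-type sinus list was Mrc1, of the high endothelial venule list Glycam1 and of the fibroblastic list Dcn (136 against 64.3 CPM). The capillary and arterial list had Bmx higher and Flt1 and Ly6c1 lower of 5 compared, and Plvap stood at 955 against 1067 CPM. No gene of the lymphocyte, macrophage, epithelial or dividing cell lists reached the level compared.

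**Figure D3:**
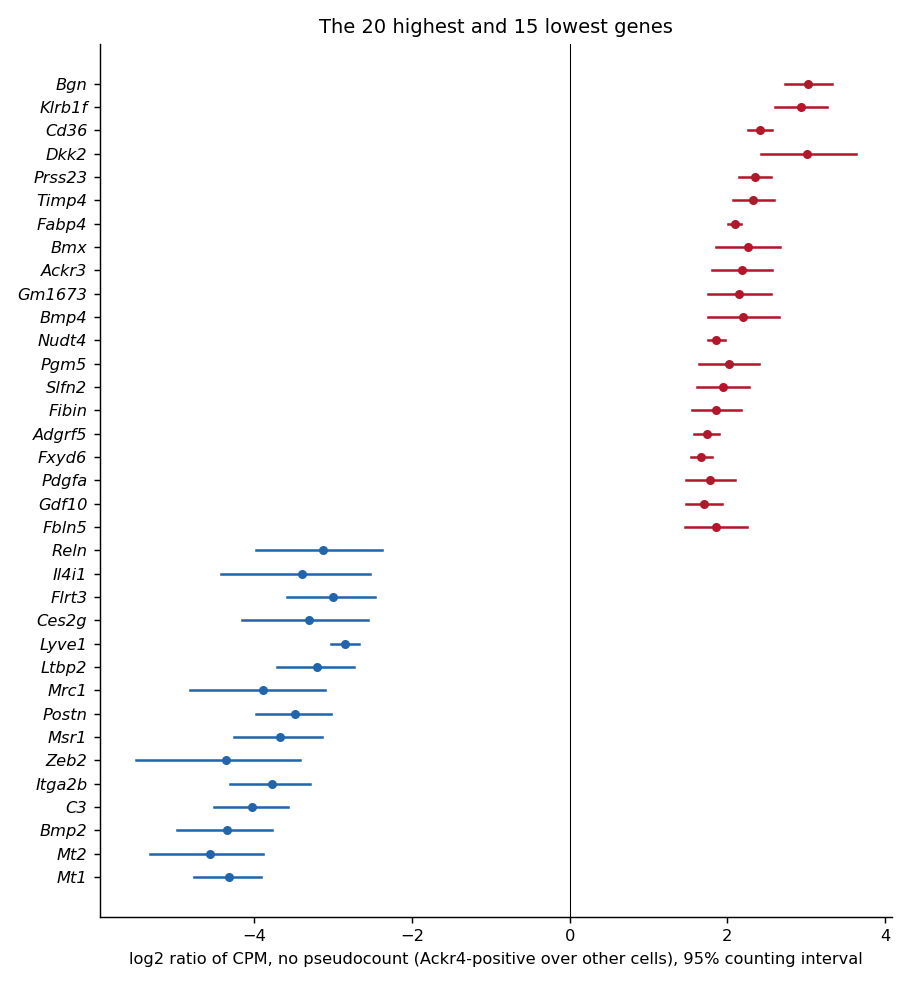
Log2 ratio of CPM without an added value in the Ackr4-positive cells over the other cells, for the 20 genes at the top and the 15 at the bottom of the order by CPM + 10, with 95% conditional binomial intervals for counting error. In the order by CPM + 10, Bgn and Klrb1f lead the higher genes and Mt1 and Mt2 the lower ones. The values drawn give some genes another order, among them Dkk2 above Klrb1f and Bmp2 below Mt1. The genes were picked for these ratios, so the distance of the intervals from 0 follows from the choice.

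The rest of the 20 highest genes held several secreted and surface proteins. Klrb1f, a lectin-like receptor known from lymphoid cells, stood at 317 CPM (284 to 352) against 41.6 (33.7 to 50.7) and was found in 153 cells, and it had 1 UMI in the Madcam1-positive cells. Dkk2, a secreted modulator of Wnt signalling, stood at 107 against 13.3 CPM. The serine protease Prss23 stood at 601 against 118 CPM, the kinase Bmx at 154 against 32.2 CPM, the growth factor Pdgfa at 214 against 62.2 CPM and the TGF-beta family member Gdf10 at 370 against 113 CPM.

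Since Klf2 was among the higher genes, the 250 bases before the start of each gene were searched for CACACCC, a core of the motif bound by KLF factors, on both strands, and for CCGGAAG (ETS factors) and TGTTTAC (forkhead factors). The sequences are from RefSeq on GRCm38.p6. The KLF letters were found for 11 of the 68 higher genes that had a promoter entry (16.2%), 10 of 88 lower genes (11.4%), 112 of 1486 genes compared (7.54%) and 7.90% of all 27025 genes in the table. The ETS letters were found for 2.94% of the higher genes, 11.4% of the lower genes, 14.5% of the genes compared and 7.83% of all genes, and the forkhead letters for 1.47%, 4.55%, 2.15% and 3.54%. These are counts of letters, with no test. The sequences shown are those of Bgn, the gene with the highest ratio and no match, and the 3 of the 20 highest genes with a KLF match in a window outside the annotated gene. Capitals mark the KLF letters, or their reverse complement in Klrb1f.
Bgn, chrX:73483351-73483600, forward strand: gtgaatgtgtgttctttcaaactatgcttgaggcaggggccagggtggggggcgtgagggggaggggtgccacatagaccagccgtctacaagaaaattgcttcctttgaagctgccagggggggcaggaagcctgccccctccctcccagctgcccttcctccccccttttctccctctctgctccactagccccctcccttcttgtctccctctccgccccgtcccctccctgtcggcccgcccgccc
Klrb1f, chr6:129045651-129045900, forward strand: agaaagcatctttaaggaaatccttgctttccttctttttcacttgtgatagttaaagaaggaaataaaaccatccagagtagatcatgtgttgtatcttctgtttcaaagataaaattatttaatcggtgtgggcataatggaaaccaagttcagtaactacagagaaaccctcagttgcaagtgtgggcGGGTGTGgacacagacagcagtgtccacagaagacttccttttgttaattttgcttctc
Timp4, chr6:115252206-115252455, reverse strand: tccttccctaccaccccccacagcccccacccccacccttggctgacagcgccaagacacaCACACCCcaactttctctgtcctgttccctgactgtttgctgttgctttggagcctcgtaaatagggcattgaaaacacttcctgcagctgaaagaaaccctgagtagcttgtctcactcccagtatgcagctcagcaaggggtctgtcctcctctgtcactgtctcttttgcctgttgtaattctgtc
Gdf10, chr14:33923337-33923586, forward strand: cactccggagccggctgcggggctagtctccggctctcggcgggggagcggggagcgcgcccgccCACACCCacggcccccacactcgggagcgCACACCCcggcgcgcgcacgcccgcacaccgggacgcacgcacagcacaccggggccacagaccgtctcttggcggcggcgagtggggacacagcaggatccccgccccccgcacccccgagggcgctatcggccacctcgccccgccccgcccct
In Gdf10 the letters occurred 2 times, and the first match began 185 bases before the start. In Timp4 the match began 189 bases and in Klrb1f 59 bases before it. Pdgfa, whose window lies inside the annotated gene, also had a match.

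The 3 groups most like the Ackr4-positive cells were not equally far from them. Against the 235 Marco-positive cells, 143 of 1942 genes were higher (7.36%) and 229 lower (11.8%). Against the 102 Madcam1-positive cells, 202 of 1919 were higher (10.5%) and 206 lower (10.7%). Against the 420 cells with Ackr4, Marco and Madcam1 at 0, 37 of 1809 were higher (2.05%) and 68 lower (3.76%). The last group was also the shallowest, at a median of 2197 UMIs, and whether it held cells whose Ackr4 RNA was missed was not tested. The 3 groups are parts of the same 757 cells, so the calls against them are not independent of the first comparison. Of the 88 genes called higher, 33 passed the limit against each of the 3 groups, among them Bgn, Cd36, Fabp4, Klrb1f, Dkk2, Prss23, Timp4, Ackr3, Bmp4, Bmx and Pdgfa. Of the 121 lower genes 42 did, among them Lyve1, Mrc1, Mt1, Mt2, Bmp2, C3, Itga2b, Msr1 and Postn.

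The genes furthest apart differed in part between the groups, and Cd36 was called against all 3. Against the Marco-positive cells, the elastic fibre protein Fbln5 was higher (138 against 13.2 CPM) and the non-coding RNAs Meg3 (1 UMI against 157) and Rian (0 UMIs against 96) were lower, the last at least 41.6-fold at a floor of 3 UMIs. Those UMIs lay in 9 and 7 of the 235 Marco-positive cells. Against the Madcam1-positive cells, Cd36 differed most among higher genes, at 1152 against 6.90 CPM. The adhesion protein Cdh13 had 0 UMIs there and 221 in the Ackr4-positive cells, at least 29.7-fold higher at that floor. The protease Mmp9 (1 UMI against 133) and Rgs5, a regulator of G protein signalling (1 UMI against 89), were lower. Against the cells with the 3 genes at 0, the lower genes included Ly6c1 (61.2 against 393 CPM), Ly6a (52.8 against 337 CPM) and Nrp1 (25.0 against 171 CPM). These are known from blood endothelium and stood at 1482, 1198 and 543 CPM in the blood endothelial cells.

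**Figure D4:**
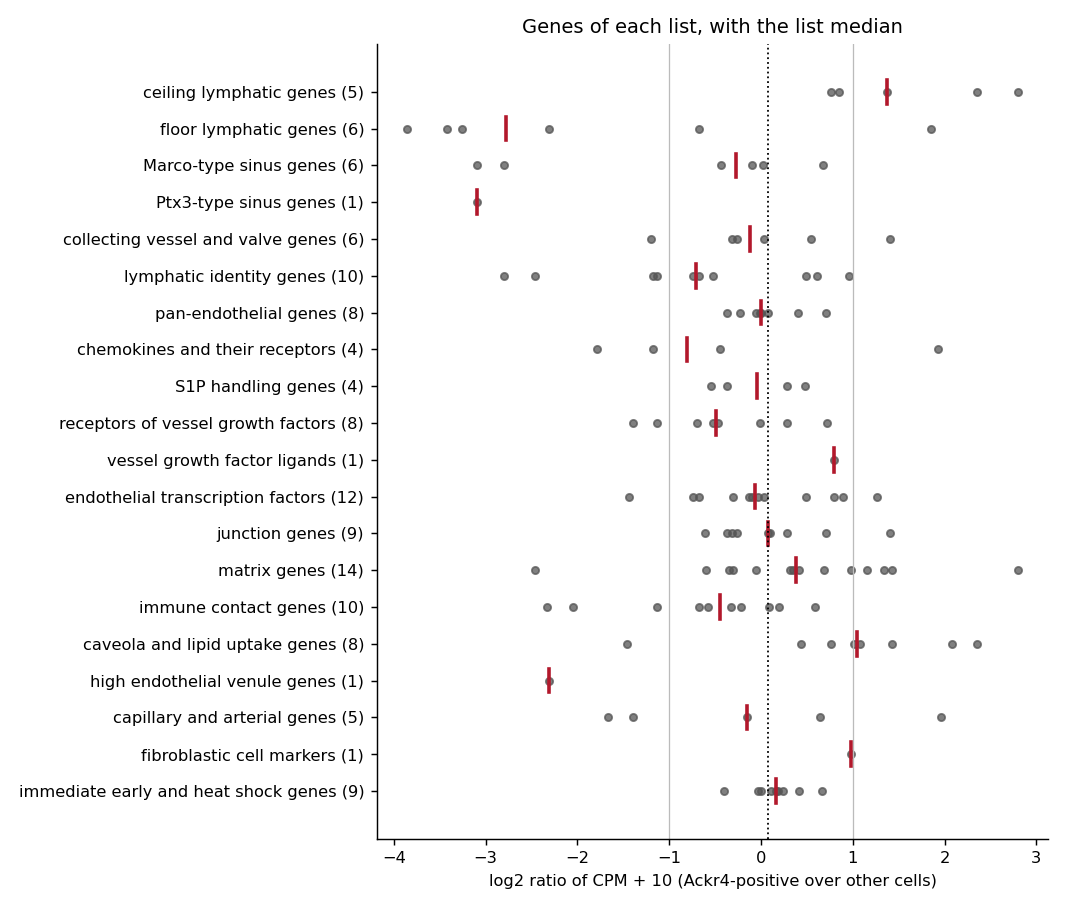
Log2 ratio of CPM + 10 in the Ackr4-positive cells over the other cells for each compared gene of the lists (dots), with the number compared in brackets and the list median as a red bar. The dotted line is the median of all 1862 genes (0.079) and the grey lines are the limits of 1 and -1. The ceiling list and the caveola and lipid list have medians above 1, and the floor list a median of -2.78. The lists were chosen with earlier results of these data known.

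The 80 cells with 1 Ackr4 UMI had a median of 2210 UMIs, and the 257 with at least 2 had 3207. Bgn stood at 370 CPM and 428 CPM in them, against 81.6 CPM in the cells with the 3 genes at 0. Cd36 stood at 1120 and 1159 CPM against 308, Fabp4 at 3169 and 3089 CPM against 1103, and Lyve1 at 267 and 251 CPM against 1023. Glycam1 differed, at 123 CPM (79.0 to 183) and 640 CPM (588 to 695). A single cell with 4 Ackr4 UMIs and 8741 UMIs in all held 395 of the 590 Glycam1 UMIs and the 119 Ccl21a UMIs named above, and it was among the cells with the highest doublet scores. Without it Glycam1 stood at 182 CPM in the 337 cells.

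The 120 cells with Nts (median 3292 UMIs) were set against the 217 without it (2825 UMIs). Of 1753 genes compared, 15 had a log2 ratio of at least 1 (0.856%) and 8 of at most -1 (0.456%). Ackr4 stood at 1345 and 1432 CPM, Prox1 at 755 and 709 CPM and Bgn at 360 and 456 CPM, none past the limit. Higher in the Nts cells were the secreted growth factor Ptn (242 against 69.4 CPM), the stress-induced factor Gdf15 (146 against 41.6 CPM), the calcium-binding S100a6 (567 against 227 CPM), the phospholipid-binding Anxa1 (144 against 46.3 CPM) and the chemokine Ccl2 (235 against 103 CPM). Tmem158, a membrane protein, had the highest ratio, 1.83. Lower were Timp4 (209 against 475 CPM), the integrin chain Itga1 (105 against 244 CPM), the lymphotoxin chain Ltb (88.3 against 247 CPM), Cxcl10 (41.8 against 116 CPM) and Cyp1b1, an oxidising enzyme (55.8 against 163 CPM). Of these 23 calls, 9 were lost when the cell with the most UMIs of that gene was left out, 7 of the 15 higher genes and 2 of the 8 lower ones. Gdf15 stood at 81.9 CPM against 41.6, a ratio of 0.83, without the cell that held 28 of its 63 UMIs in the Nts cells. Ccl2 had a ratio of 0.86 and Fgl2, a secreted fibrinogen-like protein, 0.77 without 1 cell each. Selp, an adhesion molecule, had a ratio of 1.73, and 0.19 without the cell that held 46 of its 90 UMIs. Glycam1 had a ratio of -2.55, and -0.66 without the cell named above.

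Under the same barcodes Nts was found again in most of the Nts cells, which is no independent check since the libraries share these cells. Of the 120 cells, 99 (82.5%) had an Nts UMI in the LApc counts and 97 (80.8%) in the LApcL counts, compared with 9 (4.15%) and 11 (5.07%) of the 217. Of the 15 genes higher in the Nts cells, 11 passed the limit in the LApc counts and 10 in LApcL, and of the 8 lower genes 4 and 4. Nts and Bgn were found together in 79 cells, which were 65.8% of the Nts cells and 37.1% of the Bgn cells.

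**Figure D5:**
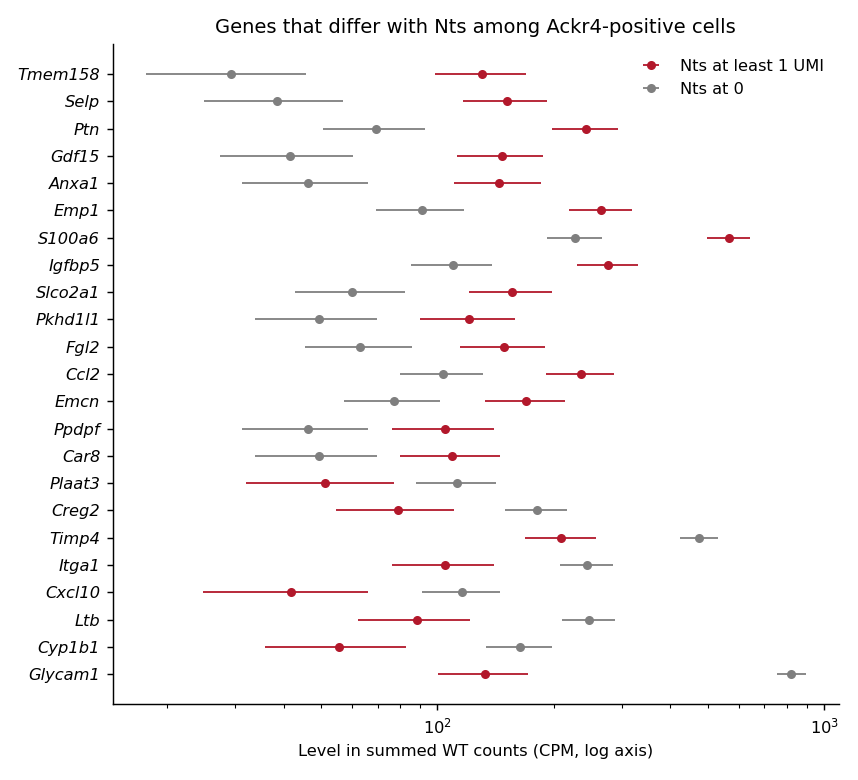
Level in the summed WT counts (CPM, log axis, with 95% Poisson intervals) of the 23 genes with a log2 ratio past 1 or -1 between the 120 Ackr4-positive cells with Nts (red) and the 217 without (grey). Of the 23 genes, 9 pass the limit only with the cell that holds the most of their UMIs, among them Selp, Gdf15, Ccl2 and Glycam1.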

How the data were processed

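Single cells of WT, LApc and LApcL small intestinal organoids had been sequenced with 10x Genomics 3' chemistry, 1 library per group. The deposited counts are UMIs per gene and barcode, made by the authors with Cell Ranger on mm10 (GRCm38), for barcodes called as cells. The file headers name Cell Ranger 6.0.1, and the submitters' processing notes name 2.1.1. The sources used here do not state whether reads of the libraries were exchanged or filtered across them.

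Barcodes in all 3 libraries were taken, and the WT counts of the Ackr4-positive cells and of each comparison group were summed and scaled to CPM. Genes with at least 100 CPM in 1 of 2 groups were compared by the log2 ratio of CPM + 10, without rule genes and mitochondrial genes, and called at 1 or -1. Y-linked genes, Xist and Tsix were left out only of the rankings that picked named genes. There was 1 sample, so no p-value was computed. Exact Poisson intervals were given for levels, conditional binomial intervals for ratios and Clopper-Pearson intervals for shares, all at 95%, and they cover counting error only. Shares were also computed after thinning cells to 1000 UMIs (seed 1). The floor for a count of 0 was 3 UMIs. Doublets were left in. Scrublet marked 0 of 6217 WT cells and had not worked, so as an alternative the cells with the highest scores were left out, 0.8% per 1000 barcodes (22 of the 337 cells and 54 of the other 757). The steps were tested on simulated data.

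Named genes were the rule genes, the marker genes, list genes, the 20 highest and 15 lowest ratios, the 10 highest and lowest against each like group and between cells with and without Nts, and the 20 most abundant genes. Beyond that rule, the genes past the limit between cells with and without Nts and the genes held mainly by 1 cell were named after their values were seen. The cells and the gene lists were chosen with earlier results of these data known. Positions and identifiers are from mm10 (GENCODE vM21), promoters from RefSeq. Python 3.11.15, numpy 2.4.6, scipy 1.17.1, pandas 2.3.3, scanpy 1.11.5 and matplotlib 3.10.9 were used. The alternatives were the LApc or LApcL counts of the cells, other limits for mitochondrial UMIs, Ackr4 and Prox1, other scalings, pseudocounts and minimum levels, and cells left out. A few genes that belong to the lists or to the rule for named genes are not reported here.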

Additional observations from a re-analysis of the deposited data

How the results depend on the processing

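Under 15 other settings and 2 added after seeing the data, the number of genes higher in the Ackr4-positive cells ranged from 52 to 119 (88 as reported) and of genes lower from 65 to 204 (121 as reported). The 88 and 121 genes kept the sign of their ratio in each. With a pseudocount of 50 CPM, 52 genes were higher and 75 lower. With a minimum of 50 CPM, 204 were lower, and with 200 CPM, 65 were lower, since more or fewer genes were compared. An added setting left out the cell with the most Glycam1 UMIs, which gave 93 and 123 genes and moved the median of the floor list to -3.35, of the chemokine list to -1.10 and of the high endothelial venule list to -3.85. The median of that last list, which is Glycam1 alone, ranged from -5.18 to -1.98 over all settings. The share of cells with Nts was 25.6% at 1000 UMIs per cell, 20.8% at 500 UMIs and 35.6% without thinning, and with Bgn it was 30.7%, 18.4% and 63.2%, because a shallower count finds fewer cells. The other added setting left out, for each called gene, the cell with the most of its UMIs in either group, and 80 of the 88 and 115 of the 121 calls held. The medians of 5 lists that lie near 0 crossed it between settings: collecting vessel and valve (-0.22 to 0.12), pan-endothelial (-0.083 to 0.12), transcription factor (-0.15 to 0.038), S1P (-0.13 to 0.039) and junction genes (-0.0056 to 0.12). No paired analysis was possible because each group had 1 library and no test was made. Of 896 values of single genes and lists, 86 moved past the counting interval of the gene or, for a list median, by at least 0.25, of which 35 with the pseudocount of 50 CPM. With 1 library, differences between mice, cultures and dissections were not measured.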

Other observations

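The 40 Ackr4-positive cells with a Lyve1 UMI were set beside the 297 without one. This split was made after the values were seen. Bgn stood at 164 CPM (106 to 242) in the Lyve1 cells and 460 CPM (417 to 506) in the others, and Ackr4 at 1069 and 1451 CPM. The secreted matrix protein Reln stood at 85.3 and 2.16 CPM, and 13 of its 15 UMIs were in the Lyve1 cells. The scavenger receptor Stab2 stood at 794 and 532 CPM and Cd36 at 1417 and 1108 CPM. Ccl21a stood at 800.2 and 83.1 CPM, and without the cell that held 119 of its 122 UMIs in the Lyve1 cells it stood at 20.9 CPM there, so the direction turned. Nts stood at 1135 and 1165 CPM, and at 645 CPM in the Lyve1 cells without the cell that held 79 of its 173 UMIs there. That cell also held the most Lyve1 UMIs, 39 of 274. Both it and the cell with the 119 Ccl21a UMIs were among the cells with the highest doublet scores. The Lyve1 cells had a median of 3294 UMIs and the others 2917.

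A few of the cells held UMIs of genes of dividing cells or RNA of other kinds. Of 36 Top2a UMIs, 15 lay in 1 cell that was among those with the highest doublet scores. Mki67 or Top2a, genes of dividing cells, were found in 11 of 337 cells (3.26%, Clopper-Pearson interval 1.64 to 5.77) and in 25 of the other 757 (3.30%, 2.15 to 4.84). At least 3 UMIs of 6 dividing cell genes were found in 5 of the 337 cells (1.48%) and 3 of the other 757 (0.396%). Those cells held 79 of the 88 UMIs of these genes in the first group and 70 of 102 in the second, and the 6 genes together stood at 81.5 and 43.7 CPM. A marker of epithelial cells, lymphocytes or macrophages was found in 22 of the 337 cells (6.53%) and 74 of the other 757 (9.78%). Dcn stood at 136 CPM, and at 94.1 CPM without the cell that held 46 of its 147 UMIs.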
